A study of Homo sapiens with 12 samples.

Results

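In OCI-Ly7 lymphoma cells, 82 genes lay strongly below vehicle with ibrutinib at 10 μM and with PLS-123 at 1 μM alike. These genes were chosen by their measured values. Intensities of the arrays were put on the log2 scale, each gene was read by its brightest probe set (a group of short probes for a stretch of its transcript), and a gene was kept when its vehicle mean was 5 or higher and both treated means were 1.0 or more below it. Of 19775 genes, 9599 had such a vehicle mean and 98 met the thresholds, which is 1.02% of those 9599. Leaving out 16 of them by name gave the 82 genes described here. Counts by function or by size of difference below hold for the 82 and need not hold for all 98. The distance of the 82 genes from vehicle with these treatments is how they were selected, and it is given as a description without a test.

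OCI-Ly7 is an established human line of diffuse large B-cell lymphoma of germinal centre type, grown in DMEM with 10% FBS. Its cells were kept for 24 hours with vehicle, with ibrutinib at 1 or 10 μM, or with PLS-123 at 1 μM, with 3 samples in each of the 4 groups, and each sample was read on its own Affymetrix U133 Plus 2.0 array. All groups are untransfected cells of this single line, so nothing here speaks for another line. Nothing in the labels tells whether the 3 samples came from separate cultures, so p values measure the spread between these samples, which may be technical. Array intensities ran from 2.09 to 15751 in linear units, and the array medians from 14.2 to 14.8. B-cell marker genes were bright with vehicle, at 12.38 for MS4A1 and 11.18 for CD79B on the log2 scale, whereas 5 of 6 T and NK cell markers lay below 3.87, the median of all probe sets.

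Btk is a cytosolic tyrosine kinase that carries the signal of the B-cell receptor towards phospholipase C, calcium and NF-κB, on which many B-cell lymphomas depend. Ibrutinib binds Btk covalently, and PLS-123 is another irreversible Btk inhibitor. The comparison asks which transcripts of the line go down with both drugs. The genes found this way include receptors and adaptors of B cells, but also genes named for muscle, epithelium or germ cells, and each is introduced below with what it is known to do.

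Promoters were taken from the RefSeq table of GRCh38.p14, 250 bases before to 50 bases after each annotated start, where 68 of the 82 genes had 113 entries. The members without an entry are MYH11, LOXL2, PNOC, LZTS1, CLDN23, MILR1, FUT8-AS1, FAM167A-AS1, PKHD1L1, TEX14, DEF8, PDLIM2, ALDH2 and CSF2RB. Entries of PDZRN4, MUC19, KMO and HMCES, which are among the genes with the largest differences, of a pair of neighbours that share a start region (NLRP4 and NLRP11) and of a B-cell gene with an octamer (VPREB3) are shown 5′ to 3′ on the gene's strand. Capitals mark matches to 11 short motifs that are spelled out after the sequences.
PDZRN4, chr12:41437489-41437788, plus strand: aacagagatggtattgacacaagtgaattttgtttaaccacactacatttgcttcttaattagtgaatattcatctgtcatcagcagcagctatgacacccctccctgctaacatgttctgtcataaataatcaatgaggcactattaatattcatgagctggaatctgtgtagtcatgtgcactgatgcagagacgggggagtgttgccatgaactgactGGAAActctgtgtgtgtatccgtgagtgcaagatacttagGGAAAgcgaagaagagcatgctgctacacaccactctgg
MUC19, chr12:40393144-40393443, plus strand: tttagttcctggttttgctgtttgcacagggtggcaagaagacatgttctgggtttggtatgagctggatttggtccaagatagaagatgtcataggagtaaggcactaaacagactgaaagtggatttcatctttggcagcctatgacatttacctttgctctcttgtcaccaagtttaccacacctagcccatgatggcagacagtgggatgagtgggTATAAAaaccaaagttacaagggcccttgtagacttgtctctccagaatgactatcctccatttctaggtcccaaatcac
KMO, chr1:241532128-241532427, plus strand: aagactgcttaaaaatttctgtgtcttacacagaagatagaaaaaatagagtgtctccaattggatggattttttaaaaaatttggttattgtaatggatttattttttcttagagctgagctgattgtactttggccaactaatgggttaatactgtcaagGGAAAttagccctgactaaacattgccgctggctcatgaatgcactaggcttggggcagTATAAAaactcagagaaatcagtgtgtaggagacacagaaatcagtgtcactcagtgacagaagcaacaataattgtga
HMCES, chr3:129278582-129278881, plus strand, the first of its entries: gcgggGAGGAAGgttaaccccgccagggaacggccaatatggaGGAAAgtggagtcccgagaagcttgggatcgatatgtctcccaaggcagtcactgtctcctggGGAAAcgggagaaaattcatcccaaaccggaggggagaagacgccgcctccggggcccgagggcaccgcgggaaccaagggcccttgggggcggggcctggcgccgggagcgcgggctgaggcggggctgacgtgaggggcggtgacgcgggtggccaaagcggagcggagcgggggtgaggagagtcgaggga
NLRP4, chr19:55836290-55836589, plus strand: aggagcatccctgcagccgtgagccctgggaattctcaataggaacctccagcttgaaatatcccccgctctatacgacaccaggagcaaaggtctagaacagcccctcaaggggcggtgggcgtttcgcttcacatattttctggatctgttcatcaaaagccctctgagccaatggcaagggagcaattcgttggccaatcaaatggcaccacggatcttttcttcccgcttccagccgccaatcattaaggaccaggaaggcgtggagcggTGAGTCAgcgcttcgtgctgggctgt
NLRP11, chr19:55836526-55836825, minus strand: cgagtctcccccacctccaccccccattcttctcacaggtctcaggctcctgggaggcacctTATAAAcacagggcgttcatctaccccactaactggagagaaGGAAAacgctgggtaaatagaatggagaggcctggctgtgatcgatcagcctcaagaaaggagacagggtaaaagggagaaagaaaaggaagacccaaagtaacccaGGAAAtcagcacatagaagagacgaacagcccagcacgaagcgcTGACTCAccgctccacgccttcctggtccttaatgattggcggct
VPREB3, chr22:23754376-23754675, minus strand: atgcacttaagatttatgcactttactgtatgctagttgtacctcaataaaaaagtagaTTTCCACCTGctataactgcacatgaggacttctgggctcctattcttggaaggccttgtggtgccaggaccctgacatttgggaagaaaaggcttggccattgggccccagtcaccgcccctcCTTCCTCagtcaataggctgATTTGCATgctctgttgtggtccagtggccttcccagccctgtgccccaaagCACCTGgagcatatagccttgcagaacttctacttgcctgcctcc

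The motifs were searched on both strands. They were GGAAA (the core that NFAT factors bind), ATGCAAAT (the octamer), CAGGTG (an E-box of the E2A type), CACGTG (an E-box of the MYC type), TGACTCA (AP-1), TGACGTCA (CRE), a κB type site (3 G, any 2 bases, 3 T and 2 C, so that it always holds the complement of the NFAT core), CCGGAAG (ETS), GAGGAAG (PU.1 type), TATAAA (the TATA box) and TGTTTAC (forkhead). GGAAA was in 58.4% of the 113 promoters of members and in 61.2% of all 35116 promoters of the table, and the octamer in 1.77% and 1.77%. CAGGTG was in 29.2% against 20.6%, TGACTCA in 7.08% against 4.95%, CACGTG in 9.73% against 7.26% and TATAAA in 15.9% against 11.5%. The other shares were 1.77% against 1.85% for CRE, 1.77% against 1.91% for the κB type, 9.73% against 10.3% for ETS, 12.4% against 13.6% for PU.1 and 0.885% against 3.42% for forkhead. These shares are descriptions, as entries of the same gene overlap. In KMO the TATAAA begins 29 bases before the start, and in MUC19, which holds no other match, 30 bases before it. In VPREB3 the octamer, here as its complement ATTTGCAT, ends 40 bases before the start. NLRP4 and NLRP11 run in opposite directions from starts 35 bases apart, and their windows share 64 bases with a single AP-1 match, read as TGAGTCA on the strand of NLRP4 and as TGACTCA on that of NLRP11.

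All 82 genes had each of their 3 arrays of 10 μM ibrutinib, and each of their 3 arrays of PLS-123, below every vehicle array and below every array of 1 μM ibrutinib. With so small a spread within groups, the thresholds largely fixed this separation from vehicle, so it is no separate result. The separation from 1 μM ibrutinib is a description too, as the 10 μM and PLS-123 values chose the members. With 10 μM ibrutinib their differences from vehicle ran from -4.14 to -1.01 with a median of -1.30, against a median of -0.015 for all genes with a vehicle mean of 5 or higher. With PLS-123 they ran from -5.12 to -1.01 with a median of -1.45, against -0.085. Most were modest: 51 genes lay 1 to 1.5 below vehicle with 10 μM ibrutinib and 47 with PLS-123. At the other end, 10 genes were lower by 2 or more with both treatments and 4 by 3 or more. Vehicle means went from 5.15 to 12.02, and the SD of the arrays of a group had medians between 0.07 for vehicle and 0.12 for 1 μM ibrutinib. For 4 genes the treated means ended under 3.87 with both drugs, close to what the array reads as background.

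**Figure D1:**
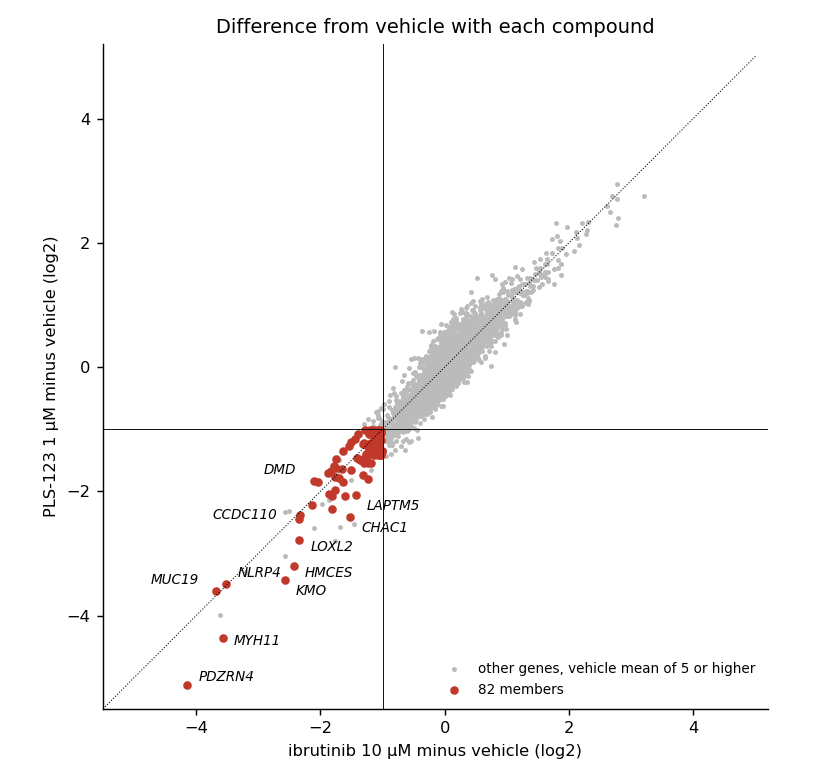
Difference from vehicle in log2 intensity with 10 μM ibrutinib (horizontal axis) and with 1 μM PLS-123 (vertical axis). Red points are the 82 genes, grey points the other genes with a vehicle mean of 5 or higher, the solid lines stand at -1, and the dotted line marks equal differences. PDZRN4 lies farthest out, at -4.14 and -5.12, and most red points lie between -1 and -2 on both axes.

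The thresholds pass through a continuous range of values. Just inside were FUT8, whose smaller difference was 1.01 below vehicle, SESN2 with 1.01 and CARD10 with 1.01, while LY96 with 0.998, UBE2J1 with 0.970 and SALL2 with 0.961 stayed just outside. Apart from the 98 genes, 16 passed with 10 μM ibrutinib alone and 47 with PLS-123 alone, and 111 genes with a vehicle mean of 5 or higher were 1.0 or more above vehicle with both drugs.

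The 82 genes were sorted by textbook function. They comprised 12 genes of the cytoskeleton, 10 immune receptors and their partners, 8 of adhesion or secretion, 8 of signalling, 8 of transcription, 7 of metabolism, 5 of innate defence, 5 of membrane traffic, 4 of ubiquitin transfer or removal, 3 of DNA or RNA repair, 5 non-coding RNAs and 7 that are named only. By RefSeq, 77 code for proteins and 5 are long non-coding RNAs, spread over 21 chromosomes.

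**Figure D2:**
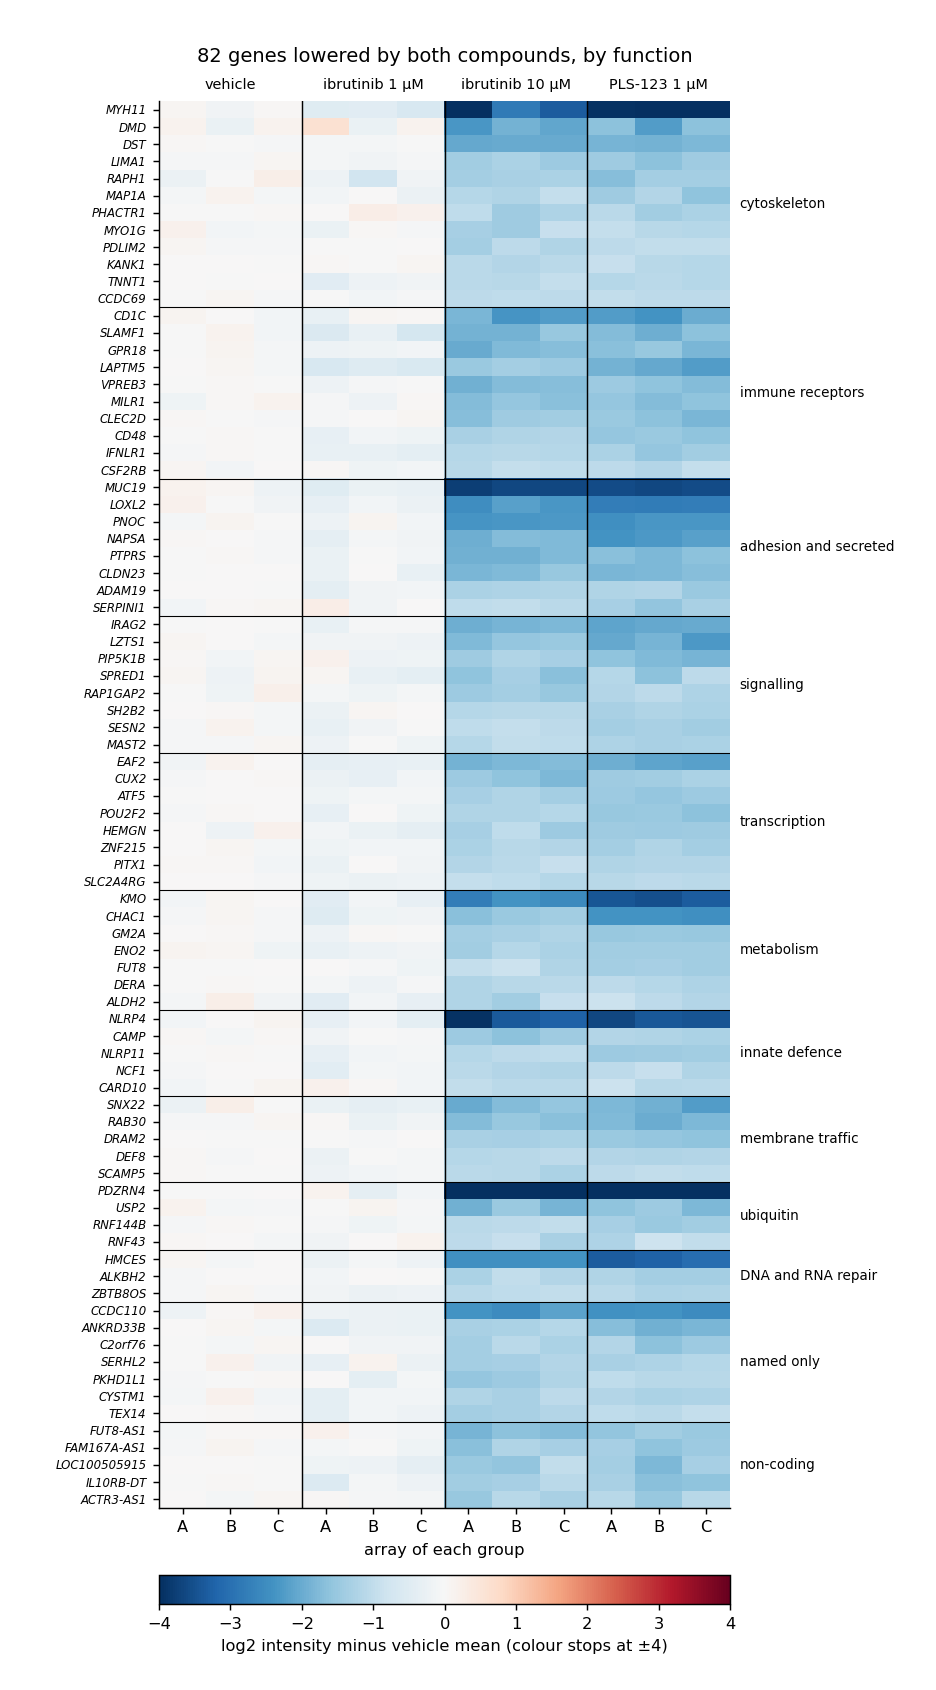
Log2 intensity of each array minus the vehicle mean of the gene, with the 12 arrays in columns by group and the 82 genes in rows by function; blue is lower, red is higher, and colours stop at 4 in either direction. Columns of 10 μM ibrutinib and PLS-123 are blue for all rows, while those of 1 μM ibrutinib stay near white, between -0.59 and 0.15 by group mean.

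The deepest difference belonged to PDZRN4, a ubiquitin ligase of the LNX family with a RING finger and PDZ domains (Entrez gene 29951). Its log2 intensity was 8.15, 8.16 and 8.18 in the vehicle arrays and 8.31, 7.79 and 8.05 with 1 μM ibrutinib. With 10 μM ibrutinib it was 3.74, 4.16 and 4.17, and with PLS-123 it was 2.91, 3.09 and 3.14. The arrays of 1 μM ibrutinib straddled those of vehicle, whereas the other treated arrays stood far below. All 3 arrays of PLS-123 and 1 of 10 μM ibrutinib lay under 3.87, in the range of dim probe sets, so the distance from vehicle is limited by the background of the array. Of its 3 relatives, LNX2 passed the test as higher with both drugs (0.40 with 10 μM ibrutinib, adjusted p = 0.0248, and 0.34 with PLS-123, adjusted p = 0.0347, limma), LNX1 was at 3.81 with vehicle and PDZRN3 at 2.96, and neither of these passed. As a background for such tests, 4.62% of all 54613 probe sets passed as lower and 5.39% as higher with 10 μM ibrutinib, and 10.4% and 6.36% with PLS-123.

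The other ubiquitin members, 3 in number, stood much closer to the threshold. USP2, a deubiquitinating enzyme, went from 7.25 ± 0.11 with vehicle (SD, n = 3, as for all means below) to 5.50 ± 0.22 with 10 μM ibrutinib and 5.63 ± 0.16 with PLS-123. RNF144B, a RING-type ligase and the brightest member, read 12.02 ± 0.04, 10.97 ± 0.04 and 10.61 ± 0.08 in the same order, and RNF43, which removes Wnt receptors from the membrane, 5.95 ± 0.07, 4.86 ± 0.19 and 4.93 ± 0.20.

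MYH11, the myosin heavy chain of smooth muscle, came next (Entrez gene 4629). The vehicle arrays gave 8.76, 8.54 and 8.72, and those of 1 μM ibrutinib 8.18, 8.22 and 8.03, all of them below vehicle. With 10 μM ibrutinib it gave 4.14, 5.85 and 5.34, and with PLS-123 4.71, 3.69 and 4.57. These treated arrays varied more than those of any other gene shown here, with an SD of 0.88 and 0.55, and the ranges of the drugs overlapped. Of 6 other probe sets of MYH11, 2 were also 1.0 or more below vehicle with both drugs but ordered them differently. The means of the first were 7.28 with vehicle, 4.25 with 10 μM ibrutinib and 5.50 with PLS-123, and those of the next 7.79, 3.84 and 3.99. These 2 and the brightest carry a suffix for probes that can also bind other transcripts. The remaining 4 were that low with neither drug: 3 of them were dim, and the other was at 4.34 with vehicle, 4.28 with 10 μM ibrutinib and 4.22 with PLS-123.

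The list of the smooth muscle contractile programme holds 15 other genes, of which 6 were dim in this line. Of the 15, 1 passed as lower and none as higher with 10 μM ibrutinib, and 1 as lower and 2 as higher with PLS-123. The lower gene was LPP, a focal adhesion protein, at 7.82 with vehicle and lower by 0.93 (adjusted p = 0.000351) and by 1.09 (adjusted p = 7.47e-05, limma). The higher genes were TPM1, a tropomyosin, by 0.42 (adjusted p = 0.0147), and ACTA2, smooth muscle actin, by 0.66 (adjusted p = 0.0151), the latter from a level of 2.92. Of 7 stromal and smooth muscle markers 4 were dim, CNN1 at 3.06 among them, and their summed linear intensity was 162 to 170 over the vehicle arrays, 155 to 178 with 10 μM ibrutinib and 175 to 208 with PLS-123. COL1A1, which was not dim, was at 6.19 with vehicle, 6.18 with 10 μM ibrutinib and 6.55 with PLS-123, and the part of these markers in the values of MYH11 was not tested.

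Further cytoskeletal members link actin or microtubules to membranes. Dystrophin, DMD, was at 8.57 ± 0.24 with vehicle, 6.47 ± 0.21 with 10 μM ibrutinib and 6.73 ± 0.33 with PLS-123. The plakin DST, which ties filaments to adhesion sites, was at 7.61 ± 0.05, 5.58 ± 0.02 and 5.76 ± 0.06, and the actin cross-linker LIMA1 at 8.42 ± 0.06, 7.06 ± 0.10 and 6.93 ± 0.12. Over all 12 genes of this group the medians were -1.22 with 10 μM ibrutinib and -1.32 with PLS-123. The others were RAPH1, MAP1A, PHACTR1, MYO1G, PDLIM2, KANK1, TNNT1 and CCDC69, none of which was lower by 1.5 or more with either drug.

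KMO, which hydroxylates kynurenine in the breakdown of tryptophan, led the enzymes (Entrez gene 8564). It was at 8.49, 8.69 and 8.61 in the vehicle arrays and 8.16, 8.49 and 8.28 with 1 μM ibrutinib, which overlapped. With 10 μM ibrutinib it was at 5.83, 6.20 and 6.06, and with PLS-123 at 5.16, 5.08 and 5.27, so that every PLS-123 array lay below every array of 10 μM ibrutinib. Of the other 12 genes of the kynurenine pathway, 2 passed as lower and 1 as higher with each drug. AFMID, which makes kynurenine from its formyl form, was lower by 0.50 with 10 μM ibrutinib (adjusted p = 0.0126, limma) and by 0.39 with PLS-123 (adjusted p = 0.0344). The aminotransferase KYAT1 was lower by 0.46 (adjusted p = 0.0111) and by 0.51 (adjusted p = 0.00361), and its relative KYAT3 was higher by 0.59 (adjusted p = 0.00102) and by 0.32 (adjusted p = 0.0348). The enzymes that open the pathway include IDO2 and TDO2, which were dim with vehicle at 1.90 and 1.75, and IDO1, which was lower by 0.26 and by 0.06, and none of these passed.

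Among the other metabolic members, CHAC1, which degrades glutathione, differed most between the drugs. Its arrays read 8.32, 8.45 and 8.31 with vehicle and 7.84, 8.20 and 8.23 with 1 μM ibrutinib. They read 6.68, 6.87 and 6.98 with 10 μM ibrutinib and 5.97, 5.96 and 5.91 with PLS-123, without overlap between any of the groups. GM2A, the activator protein of ganglioside breakdown, was at 10.96 ± 0.05 with vehicle, 9.68 ± 0.08 with 10 μM ibrutinib and 9.45 ± 0.03 with PLS-123, and the enolase ENO2 at 6.98 ± 0.14, 5.71 ± 0.11 and 5.58 ± 0.01. FUT8, which adds the core fucose of N-glycans, the aldolase DERA and the aldehyde dehydrogenase ALDH2 complete the 7, whose medians were -1.26 and -1.39.

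HMCES, which binds covalently to abasic sites in single-stranded DNA and shields them, was the brightest gene among the 6 with the largest differences (Entrez gene 56941). It was at 11.02, 10.84 and 10.93 with vehicle and at 10.69, 10.86 and 10.73 with 1 μM ibrutinib. It was at 8.49, 8.47 and 8.55 with 10 μM ibrutinib and at 7.59, 7.68 and 7.89 with PLS-123, or 5.36-fold and 9.23-fold less than vehicle. The spread within each group was small beside these steps. Of 15 other genes of abasic site and base excision repair, 1 passed as lower and 1 as higher with 10 μM ibrutinib, and 2 and 2 with PLS-123. OGG1, the glycosylase for oxidized guanine, was lower by 0.65 (adjusted p = 0.000959) and by 0.75 (adjusted p = 0.000228, limma). NEIL2, another glycosylase, was higher by 0.44 (adjusted p = 0.00439) and by 0.35 (adjusted p = 0.0129), from a vehicle level of 3.75. With PLS-123, APEX2 was lower by 0.34 (adjusted p = 0.00943) and NEIL3 higher by 0.27 (adjusted p = 0.0473).

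HMCES is also listed with somatic hypermutation and class switching, where 11 other genes were measured. With 10 μM ibrutinib 2 passed as lower and none as higher, and with PLS-123 3 as lower and 1 as higher. The polymerase POLH was lower by 0.27 (adjusted p = 0.0338) and by 0.40 (adjusted p = 0.00221, limma), and the end-joining factor XRCC4 by 0.40 (adjusted p = 0.0142) and by 0.51 (adjusted p = 0.00195). APEX2, which both lists hold, was the remaining lower gene, and the ligase LIG4 was higher with PLS-123 by 0.76 (adjusted p = 0.00155). The other repair members were ALKBH2, which removes alkyl groups from bases, at 9.30 ± 0.03, 8.17 ± 0.14 and 7.99 ± 0.09 with vehicle, 10 μM ibrutinib and PLS-123, and ZBTB8OS, a cofactor of tRNA ligation, at 10.56 ± 0.07, 9.53 ± 0.05 and 9.38 ± 0.09.

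**Figure D3:**
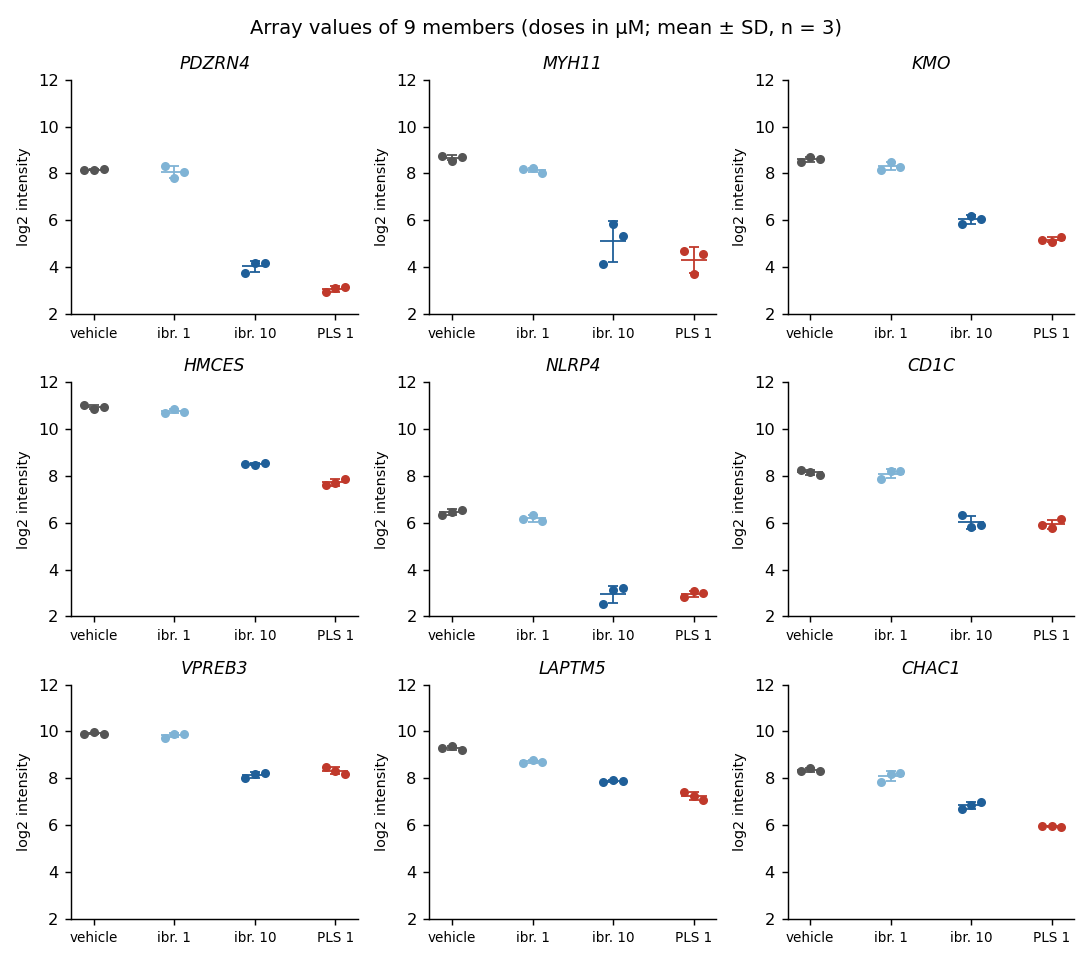
Log2 intensity (vertical axis) of each array for 9 of the 82 genes, with vehicle, ibrutinib at 1 μM (ibr. 1) and at 10 μM (ibr. 10) and PLS-123 at 1 μM (PLS 1) along the horizontal axis; points are arrays, and bars give the mean ± SD of 3. LAPTM5 is lower already at 1 μM ibrutinib, by 0.59, while in each panel the arrays of 10 μM ibrutinib lie below those of 1 μM, and PDZRN4, KMO, HMCES, LAPTM5 and CHAC1 lie lower again with PLS-123.

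MUC19, a gel-forming mucin, and NLRP4, a NOD-like receptor, differed most after PDZRN4 and MYH11, and about equally with both drugs. MUC19 read 7.17, 7.11 and 6.82 in the vehicle arrays, 6.56, 6.77 and 6.75 with ibrutinib at 1 μM, 3.26, 3.38 and 3.40 at 10 μM, and 3.45, 3.38 and 3.45 with PLS-123. NLRP4 read 6.34, 6.46 and 6.56 with vehicle, 6.14, 6.34 and 6.06 with ibrutinib at 1 μM, 2.52, 3.10 and 3.21 at 10 μM, and 2.81, 3.07 and 3.01 with PLS-123. Both ended under 3.87, in the range of dim probe sets, so that the levels with the drugs are close to what the array reads as background.

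MUC19 headed the genes of adhesion and secretion, whose medians were -1.84 with 10 μM ibrutinib and -2.03 with PLS-123, the lowest of the function groups with 8 or more genes. LOXL2, a lysyl oxidase that cross-links collagen, was at 8.21 ± 0.15 with vehicle, 5.88 ± 0.16 with 10 μM ibrutinib and 5.43 ± 0.03 with PLS-123. Its other probe sets were low already with vehicle and differed little, the brightest of them being at 4.19, 3.96 and 3.88. PNOC, the precursor of the neuropeptide nociceptin, was at 8.50 ± 0.09, 6.16 ± 0.02 and 6.12 ± 0.06, and NAPSA, an aspartic protease, at 8.53 ± 0.05, 6.72 ± 0.12 and 6.25 ± 0.10. The remaining genes of this group were the receptor phosphatase PTPRS, the tight junction protein CLDN23, the metalloprotease ADAM19 and the protease inhibitor SERPINI1.

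In innate defence, NLRP11 was far brighter than a dim probe set and differed less than NLRP4: it was at 10.03 ± 0.04 with vehicle, 8.96 ± 0.06 with 10 μM ibrutinib and 8.62 ± 0.02 with PLS-123. CAMP, which encodes the antimicrobial peptide cathelicidin, was at 8.17 ± 0.08, 6.67 ± 0.11 and 6.96 ± 0.06. NCF1, a subunit of the phagocyte NADPH oxidase, was at 8.61 ± 0.04, 7.46 ± 0.06 and 7.56 ± 0.15, and its near-identical pseudogene copies may share its probes. CARD10, a scaffold on the way to NF-κB, is the member of this group nearest to the threshold.

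The immune receptors and their partners had medians of -1.57 and -1.65 over 10 genes. CD1C presents lipid antigens to T cells. It read 8.25, 8.17 and 8.03 with vehicle, 7.86, 8.23 and 8.19 with ibrutinib at 1 μM, 6.34, 5.80 and 5.91 at 10 μM, and 5.90, 5.76 and 6.15 with PLS-123, so that the low dose overlapped with vehicle and the drugs with each other. LAPTM5, a lysosomal protein that lowers antigen receptors at the cell surface, descended in steps instead. It was at 9.31, 9.39 and 9.23 with vehicle, 8.67, 8.78 and 8.71 with ibrutinib at 1 μM, 7.83, 7.94 and 7.87 at 10 μM, and 7.40, 7.25 and 7.09 with PLS-123, with no overlap between groups.

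SLAMF1 and CD48 are cell surface receptors of the SLAM family and neighbours among the protein-coding genes of chromosome 1. SLAMF1 was at 5.52 ± 0.13 with vehicle, 4.99 ± 0.22 with ibrutinib at 1 μM, 3.76 ± 0.21 at 10 μM, and 3.75 ± 0.16 with PLS-123, and CD48 at 10.46 ± 0.04, 10.25 ± 0.11, 9.23 ± 0.05 and 8.91 ± 0.05. SLAMF1 thus ended under 3.87 with both drugs. GPR18, a receptor coupled to G proteins, was at 8.42 ± 0.09 with vehicle, 6.60 ± 0.16 with 10 μM ibrutinib and 6.75 ± 0.15 with PLS-123. VPREB3, a partner of the pre-B-cell receptor chains whose promoter with the octamer is shown above, was at 9.92 ± 0.04, 8.13 ± 0.12 and 8.32 ± 0.15. MILR1, CLEC2D, the interferon lambda receptor IFNLR1 and the cytokine receptor chain CSF2RB made up the rest.

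Of the 8 transcription members, POU2F2 (Oct-2) is the B-cell factor that binds the octamer. Its brightest probe set was at 8.82 ± 0.06 with vehicle, 7.63 ± 0.03 with 10 μM ibrutinib and 7.28 ± 0.07 with PLS-123. Its other probe sets were also 1.0 or more below vehicle with both drugs, the brightest of them at 8.45, 7.27 and 6.91. The only exception was at 5.76, 5.60 and 5.21. EAF2, a partner of the elongation factor ELL, showed the largest difference of the group, from 9.92 ± 0.14 to 8.11 ± 0.09 and 7.84 ± 0.11. The homeobox gene CUX2 was at 6.55 ± 0.05, 4.92 ± 0.17 and 5.19 ± 0.09, and the stress-responsive ATF5 at 10.61 ± 0.02, 9.31 ± 0.09 and 9.13 ± 0.07. HEMGN, ZNF215, PITX1 and SLC2A4RG were lower by less than 1.5 with either drug.

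The signalling members had medians of -1.38 and -1.31. IRAG2, a membrane protein of the endoplasmic reticulum in lymphoid cells, was at 11.59 ± 0.02 with vehicle, 9.73 ± 0.08 with 10 μM ibrutinib and 9.54 ± 0.05 with PLS-123. LZTS1, a leucine zipper protein, was at 6.36 ± 0.07, 4.76 ± 0.14 and 4.29 ± 0.22. PIP5K1B, which makes the phosphoinositide that phospholipase C cleaves, was at 7.33 ± 0.09, 6.02 ± 0.10 and 5.59 ± 0.12, and SPRED1, an inhibitor of Ras signalling, at 5.66 ± 0.16, 4.13 ± 0.17 and 4.39 ± 0.32. RAP1GAP2, the adaptor SH2B2, the amino acid sensor SESN2 and the kinase MAST2 were the others. In membrane traffic, the sorting nexin SNX22 was at 7.71 ± 0.22, 5.95 ± 0.23 and 5.73 ± 0.24, and the Golgi GTPase RAB30 at 9.23 ± 0.07, 7.59 ± 0.11 and 7.38 ± 0.12. DRAM2, a lysosomal protein of autophagy, was at 9.76 ± 0.01, 8.46 ± 0.02 and 8.21 ± 0.07, and DEF8 and SCAMP5 lay nearer to the threshold.

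Among the genes that are named only, CCDC110 had by far the largest difference, from 5.54 ± 0.19 with vehicle to 3.20 ± 0.18 with 10 μM ibrutinib and 3.10 ± 0.07 with PLS-123, where it was dim. ANKRD33B was at 8.17, 8.22 and 8.07 with vehicle, 7.62, 7.92 and 7.88 with ibrutinib at 1 μM, 6.86, 6.90 and 7.02 at 10 μM, and 6.46, 6.24 and 6.34 with PLS-123. C2orf76, SERHL2, PKHD1L1, CYSTM1 and TEX14 ranged from -1.42 to -1.02. The 5 non-coding RNAs had medians of -1.34 and -1.48. FUT8-AS1, antisense to FUT8, was at 6.11 ± 0.07, 4.37 ± 0.11 and 4.63 ± 0.10, the other RNAs being FAM167A-AS1, LOC100505915, IL10RB-DT and ACTR3-AS1.

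Several members lie side by side in RefSeq's order of protein-coding genes and members, which leaves out all other non-coding genes. SLAMF1 and CD48, NLRP11 and NLRP4, FUT8 and FUT8-AS1, and CCDC69 and GM2A are direct neighbours in this order. Between MUC19 and PDZRN4 it holds only CNTN1, which was dim at 2.29 with vehicle. The genes around these pairs did not go down alike. Beside SLAMF1, CD84 was lower by 0.64 with 10 μM ibrutinib (adjusted p = 0.000167, limma) and by 0.94 with PLS-123 (adjusted p = 4.03e-06). SLAMF6 was higher by 0.31 with 10 μM ibrutinib (adjusted p = 0.0197, limma). With PLS-123, SLAMF6 was lower by 0.10 and did not pass (adjusted p = 0.421). Beside CCDC69, ANXA6 was lower by 0.60 (adjusted p = 0.0012) and by 0.95 (adjusted p = 1.92e-05), and TNIP1 differed by 0.07 with either drug and did not pass. These neighbours were named after their values were seen.

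Further probe sets offer another reading of 49 members, from the same arrays. Of 56 further probe sets with a vehicle mean of 5 or higher, in 33 genes, 39 were also 1.0 or more below vehicle with both drugs, 5 with a single drug and 12 with neither. This limit on the vehicle level keeps the probe sets with room to go down: of the 70 that were not dim, 40 were that low with both drugs and 25 with neither, and of all 113, 42 with both and 64 with neither. Those 12 belong to 10 genes. The brightest are a probe set of DEF8 at 9.79 with vehicle, 9.17 with 10 μM ibrutinib and 8.86 with PLS-123, and a probe set of KANK1 at 7.98, 7.23 and 7.09. A probe set of ATF5 was at 6.27, 5.97 and 5.86, that of POU2F2 is given above, and a probe set of SLC2A4RG was at 5.69, 5.09 and 5.33. The probe sets read for MYH11, DST, CLEC2D, SERHL2 and NCF1 carry the suffix for probes that can also bind other transcripts. Probe sets of a gene can read different transcript ends, so a value here belongs to a probe set rather than to every transcript of the gene. Nor can fewer cells with a transcript and less of it per cell be told apart in RNA from a whole culture.

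At 1 μM, ibrutinib brought none of these genes near their levels at 10 μM. That gap is a description, because the 10 μM values chose the members. Differences from vehicle at 1 μM ran from -0.59 to 0.15 with a median of -0.13, and 74 of 82 were negative. The median for all genes with a vehicle mean of 5 or higher was -0.00058. None of the 82 passed at an adjusted p under 0.05 (limma over 54613 probe sets), where 0% of all probe sets passed as lower and 0% as higher. At an unadjusted p under 0.05, 19 members (23.2%) were lower and none higher, beside 3% of all probe sets and 1.6% of the genes with a vehicle mean of 5 or higher. In 30 members (36.6%) the 3 arrays all lay below the 3 vehicle arrays, beside 4.81% of the genes with a vehicle mean of 5 or higher, and in none did they all lie above. The vehicle arrays took part in choosing the members, since a gene with high vehicle values was more readily kept, so these shares are not independent of the choice.

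LAPTM5 came closest to passing, at 0.59 below vehicle (SE 0.09, 95% interval -0.79 to -0.39, adjusted p = 0.282, limma), and over 20 alternative fits its adjusted p ran from 0.0056, with a variance trend by intensity, to 0.93. SLAMF1 and MYH11 were about as far below vehicle, by 0.53 each, with intervals of -0.81 to -0.24 and of -1.26 to 0.20, and neither passed. Intervals of 81 of the 82 members ended above -1, the exception being MYH11. For PDZRN4 the interval was -0.41 to 0.18, for KMO -0.53 to -0.04 and for HMCES -0.36 to 0.03. At matched doses (1 μM each), PLS-123 lay below ibrutinib in all 82 genes and in every array, with differences from -5.00 to -0.73 and a median of -1.30, which is a description because the PLS-123 values chose the members.

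**Figure D4:**
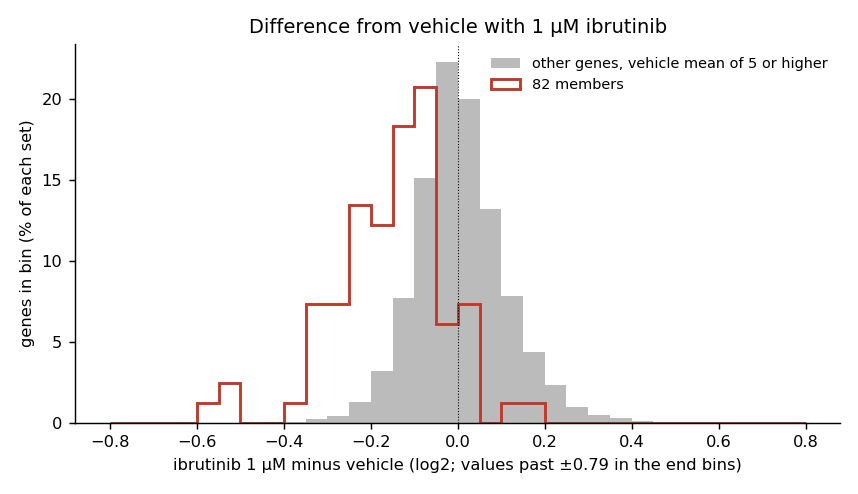
Distribution of the difference from vehicle with 1 μM ibrutinib in log2 intensity, in bins of 0.05 on the horizontal axis, with the share of genes per bin on the vertical axis. Grey bars are the other genes with a vehicle mean of 5 or higher and the red outline the 82 genes, whose median of -0.13 lies left of the dotted line at no difference.

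PLS-123 at 1 μM and ibrutinib at 10 μM were compared directly, at doses that differ, for how far the same genes went down. The means with both drugs took part in choosing the members, so the counts below describe the members and support nothing about them as a set. The difference between the drugs ran from -0.98 to 0.32 with a median of -0.10, against -0.075 for all genes with a vehicle mean of 5 or higher. PLS-123 was lower in 55 members and higher in 27. Of the 82, 6 (7.32%) passed as lower with PLS-123 and none as higher at an adjusted p under 0.05 by limma, beside 0.132% and 0.0513% of all probe sets and 0.281% lower of the genes with a vehicle mean of 5 or higher. When dim probe sets were left out of the fit, 17 members passed as lower, beside 3.05% of the 27307 probe sets left. At an unadjusted p under 0.05, 26 members (31.7%) were lower and 7 (8.54%) higher, beside 10.5% and 4.76% of all probe sets and 20.2% and 4.45% of the genes with a vehicle mean of 5 or higher. All 3 arrays of PLS-123 lay below those of 10 μM ibrutinib in 30 members (36.6%) and above them in 8 (9.76%), beside 31.4% and 7.93% of the genes with a vehicle mean of 5 or higher, so in this respect the members were near the background.

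The 6 genes were PDZRN4, lower with PLS-123 by 0.98 (95% interval -1.27 to -0.68, adjusted p = 0.0124), CHAC1 by 0.90 (-1.13 to -0.66, adjusted p = 0.00691), KMO by 0.86 (-1.11 to -0.62, adjusted p = 0.00865), HMCES by 0.78 (-0.98 to -0.59, adjusted p = 0.00691), LAPTM5 by 0.63 (-0.83 to -0.43, adjusted p = 0.0135) and ANKRD33B by 0.58 (-0.79 to -0.37, adjusted p = 0.0331), all by limma. The PLS-123 arrays of PDZRN4 were dim, so its difference and interval are limited by the background of the array. Apart from ANKRD33B, which is named only, the 6 span ubiquitin transfer, glutathione and tryptophan breakdown, DNA repair and receptor turnover. In each of them the arrays of PLS-123 all lay below those of 10 μM ibrutinib, which largely follows from their passing on the same arrays. MYH11 was lower by 0.79 but did not pass (interval -1.52 to -0.06, adjusted p = 0.286). In the other direction the largest differences were those of PKHD1L1 by 0.32 (0.07 to 0.57, adjusted p = 0.222), CAMP by 0.29 (0.11 to 0.47, adjusted p = 0.146) and RAP1GAP2 by 0.28 (0.06 to 0.49, adjusted p = 0.209). For MUC19, NLRP4 and PNOC the intervals were -0.14 to 0.30, -0.31 to 0.35 and -0.23 to 0.15.

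Fewer members and fewer probe sets of all passed without some of the arrays, among them each array of 10 μM ibrutinib. Without replicate B of that group 1 member passed, HMCES, and 7 of all probe sets passed as lower in place of 72; without replicate C 2 members passed, HMCES and CHAC1, and 19 of all. The differences moved less than the calls: without replicate B that of PDZRN4 was -0.91 and that of KMO -0.78, and without replicate C -0.90 and -0.85. Leaving out any of the 12 arrays in turn, HMCES passed 12 times, CHAC1 11 (adjusted p = 0.0508 without replicate B), KMO 10 and PDZRN4 10. LAPTM5 passed 9 times, failing also without replicate C of PLS-123 (adjusted p = 0.0729), and ANKRD33B 3 times, with adjusted p values up to 0.15. Without replicate C of PLS-123, 4 members and 21 of all probe sets passed as lower. Without replicate A of 1 μM ibrutinib, the counts were 7 and 144. Marks of RNA quality differed between vehicle and the 2 treatments compared here. The difference between the 3′ and 5′ probe sets of ACTB, which grows as RNA is degraded, was 2.69 to 2.83 over the arrays of 10 μM ibrutinib and 2.80 to 3.17 over those of PLS-123, against 2.59 to 2.68 with vehicle. The same difference for GAPDH separated these groups, with 0.268 to 0.346 with vehicle, 0.384 to 0.400 with 10 μM ibrutinib and 0.438 to 0.466 with PLS-123. With 1 μM ibrutinib that of ACTB was 2.55 to 2.87, which overlapped all these groups, and that of GAPDH 0.241 to 0.306. The part of the GAPDH difference in the values above was not tested. With that of ACTB as a covariate, an alternative added after the data were seen, 2 genes passed, PDZRN4 and HMCES (both adjusted p = 0.0333, limma), beside 8 of all probe sets lower. The differences were then -1.14 for PDZRN4, -0.84 for HMCES and -0.84 for KMO. Over 20 alternative fits the adjusted p of PDZRN4 ran from 0.000458 to 0.208 and that of HMCES from 2.34e-05 to 0.177, and HMCES passed in 18 of them.

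**Figure D5:**
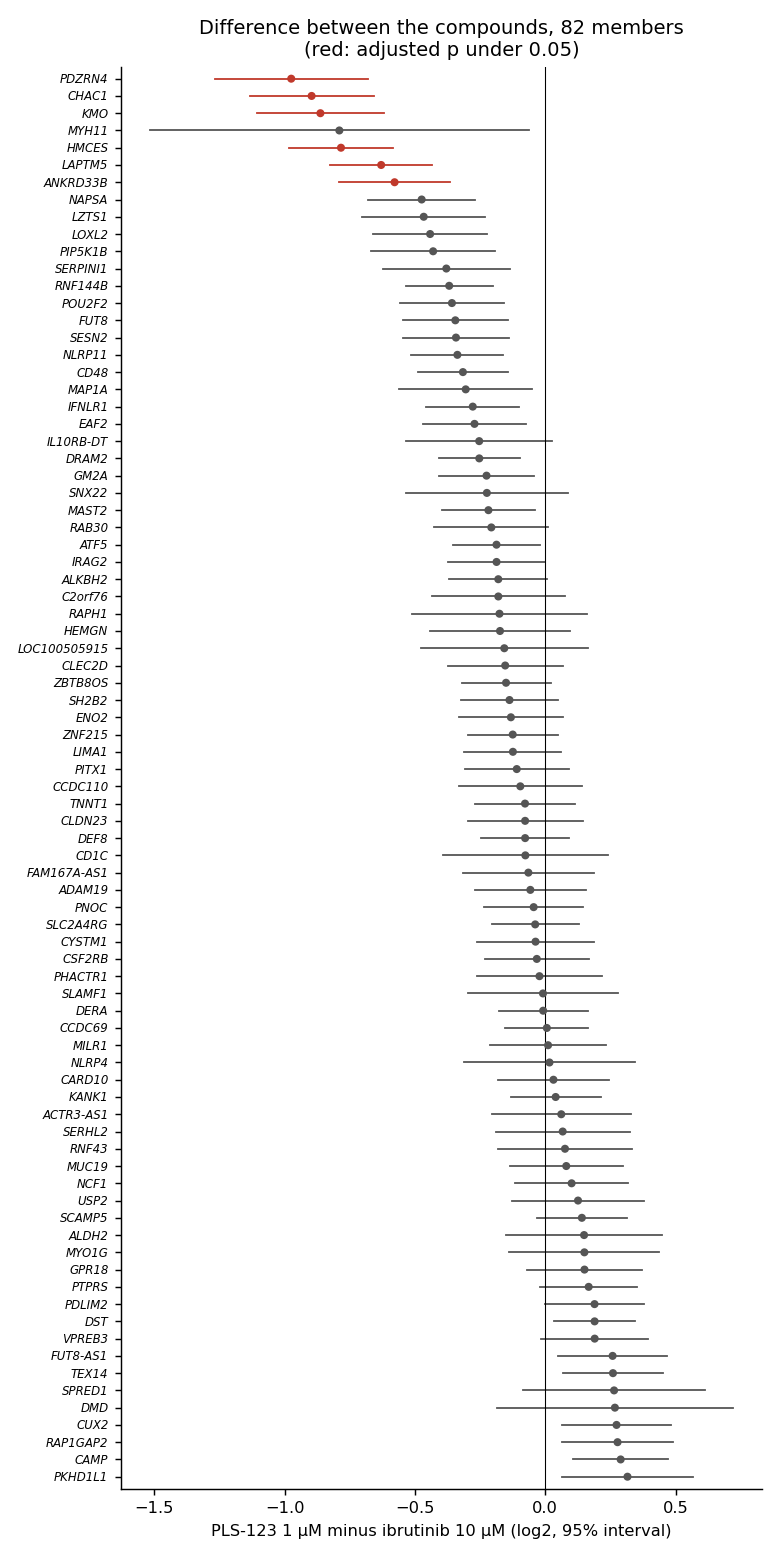
Difference in log2 intensity between 1 μM PLS-123 and 10 μM ibrutinib (horizontal axis) for each of the 82 genes in rows, ordered by size, as the mean difference with its 95% interval from limma. The 6 genes in red passed at an adjusted p under 0.05 and lie between -0.98 and -0.58, and no gene passed on the right of the line at 0.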

How the data were processed

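RNA of OCI-Ly7 cells was hybridized as biotinylated cRNA, and the authors deposited 1 intensity per probe set and array, on the linear scale, normalized by RMA per the labels, whose version is not given in the sources used here. No raw scans were used. Log2 was taken of the deposited intensities, with nothing added. Of 54675 probe sets, 62 controls were left out and 54613 tested. A gene was read by the brightest of the probe sets with its symbol alone, as named in GEO's platform annotation (41091 had 1 symbol, 1801 several, 11721 none). limma 3.58.1 in R 4.3.3 took all 12 arrays in a fit of group means with 8 residual degrees of freedom, eBayes and two-sided tests, with Benjamini-Hochberg adjustment over all probe sets of a comparison, and was tested on simulated data. With 3 arrays a group, their number limits the precision.

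The members, function groups and gene lists were chosen with earlier results of these data known, so they support nothing by themselves. Genes named are PDZRN4, MYH11, KMO and HMCES, up to 4 per function group and 8 in all by mean difference, those called, those nearest the thresholds, those whose other probe sets differ, and the largest differences between the drugs. Promoters and gene order came from RefSeq, matched by gene ID for all 82 members. The alternatives were quantile normalization, centring on 100 normalization control probe sets, the median over probe sets, other thresholds, an intensity trend, the 2 groups alone, the methods' t-test, leaving out dim probe sets (mean under 3.87), the sample letter as a block, the ACTB covariate and leaving out each array.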

Additional observations from a re-analysis of the deposited data

How the results depend on the processing

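The number of members stayed between 58, with a threshold of 1.1, and 100, with 0.9, over 16 alternatives, 71 with quantile normalization and 63 with the median over probe sets, of which 54 were among the 82. Leaving out an array kept it between 79 and 83. With 1 μM ibrutinib 0 members passed under every alternative except the intensity trend, with 1 (LAPTM5), and 0 passed by the methods' t-test. Their median difference from vehicle was -0.20 when arrays were centred on the normalization controls, and otherwise between -0.16 and -0.11. That centring also moved the median over all probe sets, from -0.0096 to -0.073. The difference of PDZRN4, -0.11, lay between -0.24 without Ibru1 replicate A and 0.016 without Ibru1 replicate B when an array was left out. The 6 members lower in PLS-123 against 10 μM ibrutinib became 18 with the intensity trend, 17 without dim probe sets, 2 with the ACTB covariate, and 0 with the 2 groups alone and with the methods' t-test, where 23 and 26 had an unadjusted p under 0.05. The count over all 54613 probe sets moved too, from 72 to 1142, to 832 (of 27307), to 8, and to 3 and 2. Leaving out an array gave 1 to 7. The count was 1 without Ibru10 replicate B, 2 without Ibru10 replicate C and 4 without PLS1 replicate C. Over all probe sets these fits gave 7, 19 and 21. The cause was not tested. No member passed as higher under any of these alternatives. Residual correlations of same-letter arrays lay between -0.209 and 0.152 over 18 pairs, and those of other-letter arrays between -0.184 and 0.218 over 36. Such ranges show no pairing by letter but cannot exclude it. With the replicate block 5 members passed as lower, ANKRD33B being lost at an adjusted p of 0.0832 by limma, 0 as higher and 0 with 1 μM ibrutinib. Members whose treated means lie near 3.87 have differences limited by the array's background.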
